A study of Neurospora crassa with 22 samples.

Results

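Transcripts of 9 genes encoding cell wall proteins of Neurospora crassa were followed in an RNA immunoprecipitation of the RNA-binding protein GUL-1: the anchored cell wall protein genes acw-1 (NCU08936), acw-2 (NCU00957), acw-3 (NCU05667), acw-5 (NCU07776), acw-6 (NCU03530) and acw-7 (NCU09133), and the non-anchored cell wall protein genes ncw-1 (NCU05137), ncw-2 (NCU01752) and ncw-3 (NCU07817). They were chosen by identifier, as 9 of the 10592 features of the count table, and all 9 passed the filter on low counts that left 7114 features for testing. The RNA sequenced was that of hyphae, taken either after a pull-down with GFP-Trap beads or as total RNA (input), of a strain making GUL-1 fused to GFP and of the non-tagged wild-type. Both strains were grown in Vs medium, a minimal medium with sucrose, with Nikkomycin Z during the last hour before RNA extraction or without the drug (standard medium). The tagged strain (mating type A) carries Pccg1-gul-1-sgfp at the his-3 locus, so that the fusion is driven by the promoter of the clock-controlled gene ccg-1 and not by that of gul-1. Its label adds hph::deltagul-1, a deletion of gul-1 itself, which the strain list of the study does not mention. The groups were GUL-1-GFP pull-downs with Nikkomycin Z (n = 3) and in standard medium (n = 3), wild-type pull-downs with Nikkomycin Z (n = 3) and in standard medium (n = 3), GUL-1-GFP inputs with Nikkomycin Z (n = 2) and in standard medium (n = 2), and wild-type inputs with Nikkomycin Z (n = 3) and in standard medium (n = 3), 22 libraries in all. Both GUL-1-GFP inputs in standard medium have titles that name a pull-down, and they were taken as inputs from their fraction label. Nothing in the labels says that replicates were separate cultures, so p-values measure only the spread between these samples, which may be technical.

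The hyphal wall is a mesh of chitin and glucans into which mannoproteins are built. Anchored wall proteins carry a glycosylphosphatidylinositol (GPI) anchor, by which they are held at the plasma membrane or cross-linked to wall glucan, whereas non-anchored wall proteins are secreted into the wall without one. GUL-1 is the homolog of Ssd1 of budding yeast, which binds mRNAs of wall proteins and holds back their translation. Nikkomycin Z inhibits chitin synthases and so stresses the wall. The comparisons address which of these transcripts came down with GUL-1-GFP and whether this differed when the wall was stressed.

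Total counts per library ranged from 259583 to 28372176 and counts on protein-coding genes from 59 to 5200733. Protein-coding genes held 4.43 to 21.5% of all counts in GUL-1-GFP pull-downs, 1.23 to 4.13% in wild-type pull-downs, 0.189 to 0.671% in GUL-1-GFP inputs and 0.0227 to 1.54% in wild-type inputs. The lowest was wild-type input replicate 3 of the standard medium, with 59 coding counts. Levels are given as CPM, counts over the library size after scaling by TMM, a factor meant to set most features level between libraries. Between GUL-1-GFP pull-downs and inputs it did not do so. There the median feature stood at a log2FC of 3.69 with Nikkomycin Z and 3.32 in standard medium. The tagged gene, gul-1 (NCU01197), had 768, 509 and 696 CPM with Nikkomycin Z and 102, 451 and 561 CPM in standard medium in GUL-1-GFP pull-downs, against 4.03, 1.92 and 3.09 CPM and 3.98, 22.5 and 13.2 CPM in wild-type pull-downs, a log2FC of 7.76 ± 0.89 with Nikkomycin Z and 4.81 ± 0.77 in standard medium. Wild-type pull-downs 2 and 3 of the standard medium thus had more gul-1 than the other wild-type pull-downs. In inputs gul-1 had 105 and 123 CPM (GUL-1-GFP) against 2.18, 2.07 and 1.01 CPM (wild-type) with Nikkomycin Z. In standard medium inputs had 32.3 and 124 CPM against 2.63, 7.76 and 0 CPM. The strain difference in pull-down over input did not pass. It was 1.75 ± 1.03 (adjusted p = 0.290, edgeR) with Nikkomycin Z. In standard medium it was 0.73 ± 1.05 (adjusted p = 0.858, edgeR). What part of the pull-down difference came from the input difference was not tested. All 5 hyphal markers (hex-1, so, cot-1, act and tub-2) were counted in every pull-down. Of the 5 conidiation markers, con-13 was at 0 in every library and con-8 and eas, a spore hydrophobin gene, were the most abundant. In pull-downs eas had 0.848, 0.297 and 0.174 CPM (GUL-1-GFP) against 28.3, 17.0 and 19.1 CPM (wild-type) with Nikkomycin Z, and 19.5, 0.174 and 0.341 CPM (GUL-1-GFP) against 61.5, 0.358 and 39.2 CPM (wild-type) in standard medium. In standard medium GUL-1-GFP replicate 1 and wild-type replicate 2 therefore departed from their own strain in this marker, in pull-downs and in inputs alike, and in part in gul-1, which was lowest of the tagged pull-downs (102 CPM) in GUL-1-GFP replicate 1 and highest of the non-tagged (22.5 CPM) in wild-type replicate 2. A mix-up of samples and a difference between the cultures cannot be told apart here, and either would bear on every value in standard medium. Results are therefore also given without these 4 libraries and the 59-count input (5 libraries left out). In standard medium this leaves GUL-1-GFP input 2 and wild-type input 1 as the only inputs. Comparisons with inputs in that fit and medium thus rest on 1 input per strain.

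Among the 9 transcripts ncw-2 was by far the most abundant in the GUL-1-GFP pull-downs. It had 1700.2, 900.5 and 1442 CPM in GUL-1-GFP pull-downs with Nikkomycin Z, against 21.4, 24.7 and 35.2 CPM in wild-type pull-downs. Standard-medium levels were 1135, 936 and 946 CPM in GUL-1-GFP pull-downs, against 21.8, 43.7 and 6.93 CPM in wild-type pull-downs. No GUL-1-GFP pull-down came near any wild-type pull-down in either medium. In inputs ncw-2 had 14.8 and 14.9 CPM (GUL-1-GFP) and 27.4, 33.3 and 41.3 CPM (wild-type) with Nikkomycin Z, and 21.5 and 29.2 CPM (GUL-1-GFP) and 24.4, 11.6 and 15.7 CPM (wild-type) in standard medium. The inputs of the strains overlapped in standard medium, and with Nikkomycin Z those of GUL-1-GFP were the lower. Per kilobase of gene span, which includes introns, ncw-2 averaged 519 ± 157 CPM with Nikkomycin Z and 387 ± 43.1 CPM in standard medium in GUL-1-GFP pull-downs (SD, n = 3 each). The next member, acw-7 with Nikkomycin Z and acw-1 in standard medium, averaged 63.0 ± 20.1 and 38.6 ± 6.16 CPM per kilobase (SD, n = 3 each).

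**Figure D1:**
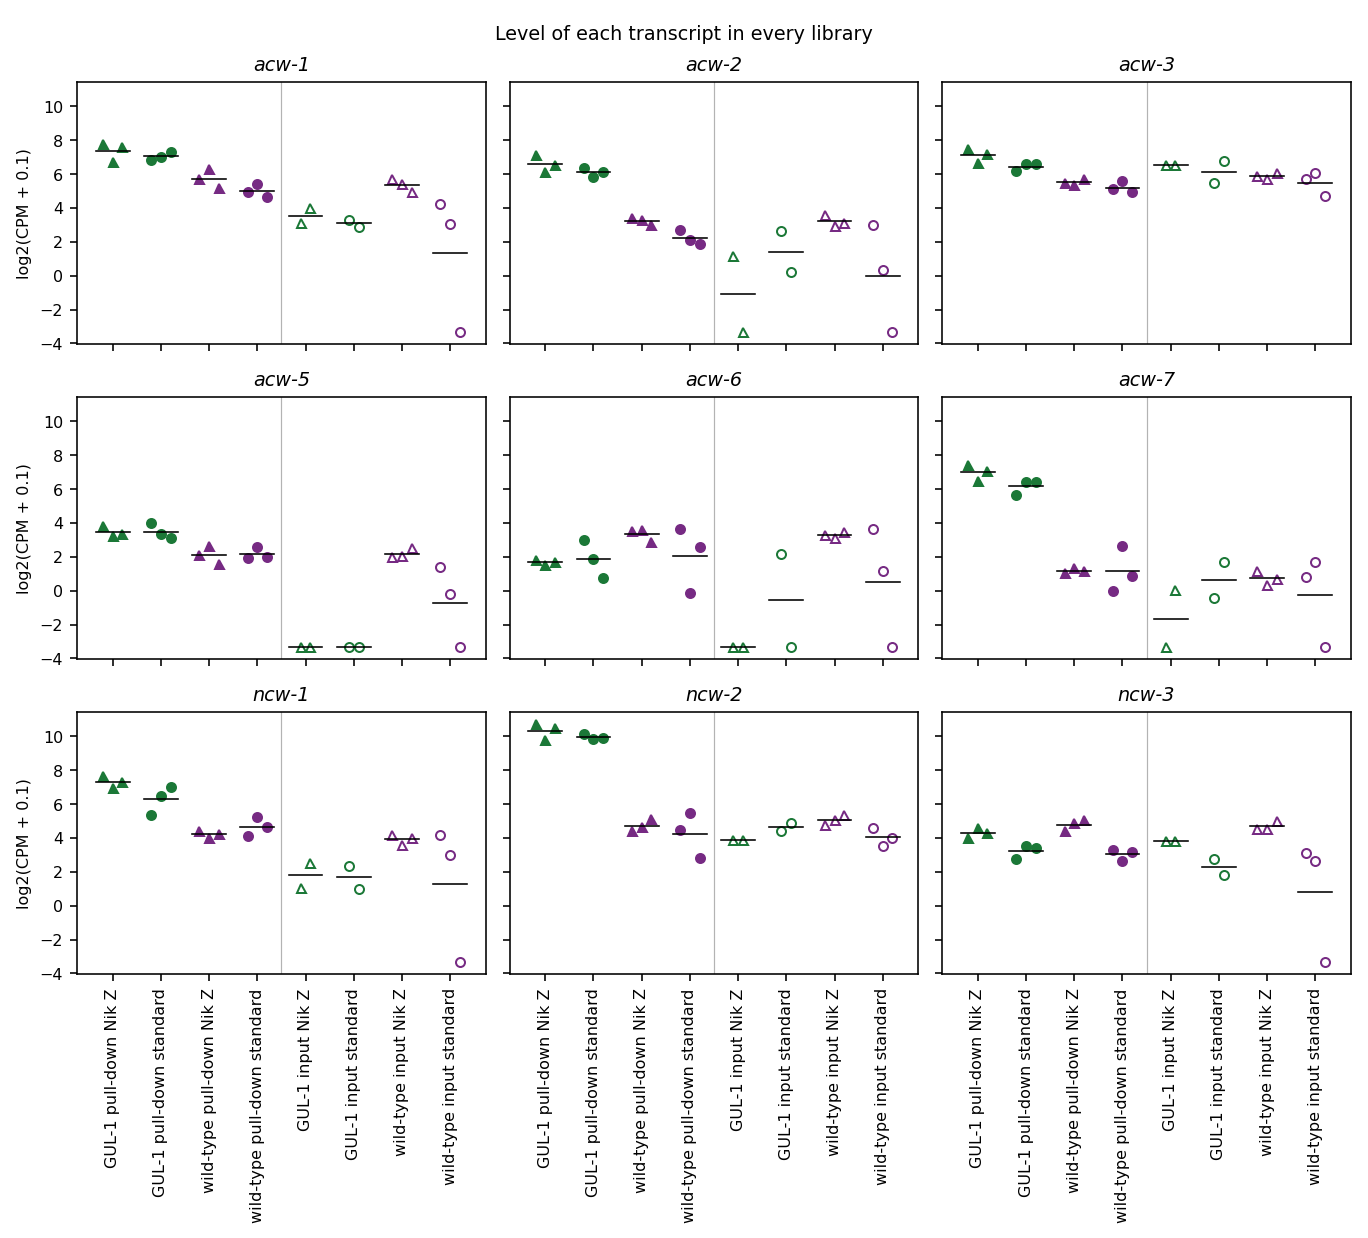
Level of each of the 9 transcripts, as log2(CPM + 0.1), in each of the 22 libraries by group (GUL-1, the GUL-1-GFP strain in green; wild-type in purple; filled, pull-down; open, input; triangles, Nikkomycin Z, abbreviated Nik Z; circles, standard medium; bar, group mean on this scale). In ncw-2, acw-7 and acw-2 the GUL-1-GFP pull-downs lie above all other libraries, while in acw-6 and ncw-3 they overlap with the wild-type pull-downs or lie below them.

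acw-7 had the lowest level of the 9 in wild-type pull-downs, at 1.05 ± 0.121 CPM per kilobase with Nikkomycin Z and 1.41 ± 1.37 CPM per kilobase in standard medium (SD, n = 3 each). Without this scaling to length it had 172, 89.0 and 132 CPM in GUL-1-GFP pull-downs with Nikkomycin Z, against 1.94, 2.44 and 2.16 CPM in wild-type pull-downs. In standard medium the values were 51.1, 85.1 and 84.5 CPM in GUL-1-GFP pull-downs, against 0.896, 6.21 and 1.72 CPM in wild-type pull-downs. All 10 inputs had between 0 and 3.13 CPM, and the GUL-1-GFP inputs no more than 15 counts each. acw-2 had 138, 69.3 and 92.2 CPM in GUL-1-GFP pull-downs with Nikkomycin Z, against 10.3, 9.77 and 7.76 CPM in wild-type pull-downs. In standard medium it had 82.3, 58.0 and 69.1 CPM in GUL-1-GFP pull-downs, against 6.39, 4.14 and 3.54 CPM in wild-type pull-downs. For both genes the groups were far apart in each medium.

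These differences were tested between the pull-downs of the strains, a comparison that needs no input library, with edgeR's quasi-likelihood test and Benjamini-Hochberg adjustment over the 7114 features. With Nikkomycin Z 6 of the 9 transcripts were higher in GUL-1-GFP, against 7.11% of all features tested, and 0 were lower, against 5.31%. In standard medium 4 of 9 were higher, against 2.59% of all features, and 0 were lower, against 0%. The median log2FC of the 9 was 1.65 with Nikkomycin Z and 1.70 in standard medium, beside -0.13 and -0.07 over all features. Of all features, 506 were higher and 378 lower with Nikkomycin Z; with total counts as library sizes, which moved the median feature to 0.72, 422 were higher and 62 lower, and 5 of the 9 passed. ncw-2 had a log2FC of 5.63 ± 0.67 (SE; adjusted p = 2.48e-06, edgeR) with Nikkomycin Z and 5.38 ± 0.66 (adjusted p = 4.92e-06, edgeR) in standard medium, or 49.7-fold and 41.7-fold. acw-7 had 5.91 ± 0.77 (adjusted p = 6.24e-06, edgeR) and 4.64 ± 0.73 (adjusted p = 1.05e-04, edgeR), or 60.1-fold and 25.0-fold, with Nikkomycin Z and in standard medium. acw-2 had 3.43 ± 0.72 (adjusted p = 0.00204, edgeR) with Nikkomycin Z and 3.90 ± 0.74 (adjusted p = 0.00105, edgeR) in standard medium. The calls of ncw-2, acw-7 and acw-2 were kept in both media in all 22 fits that left out a library. With replicate 1 as the only wild-type pull-down of the standard medium, 2 of the 9 (ncw-2 and acw-7) were called there.

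**Figure D2:**
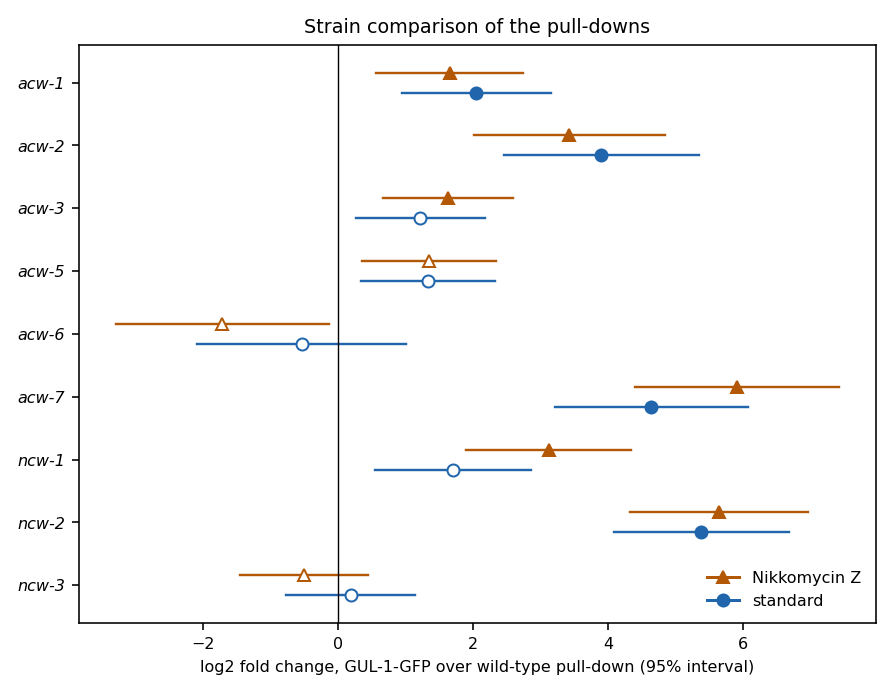
Log2 fold change of GUL-1-GFP over wild-type pull-downs for the 9 transcripts with 95% intervals from the edgeR fit (triangles, Nikkomycin Z; circles, standard medium; filled, adjusted p under 0.05). ncw-2, acw-7 and acw-2 stand at a log2FC of 3.43 or more in both media, and the intervals of acw-6 in standard medium and of ncw-3 in both media include 0.

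The 2 standard-medium pull-downs that departed from their strain in eas lay apart in the same direction, but by less for acw-7 and ncw-2. GUL-1-GFP pull-down 1 of the standard medium, with eas at 19.5 CPM, had ncw-2 at 1135 CPM, acw-7 at 51.1 CPM and acw-2 at 82.3 CPM. Wild-type pull-down 2, with eas at 0.358 CPM, had them at 43.7, 6.21 and 4.14 CPM. The acw-7 level of this GUL-1-GFP library was the lowest with the tag, and the acw-7 and ncw-2 levels of this wild-type library were the highest without it. Of the 4 conidiation markers tested, 2 (con-8 and eas) were lower with the tag than without in pull-downs with Nikkomycin Z, and 0 passed in standard medium. With the 5 libraries left out, 7 of the 9 genes were higher with Nikkomycin Z and 6 in standard medium, while the count over all 7114 features was 1029 with Nikkomycin Z, against 506 with all libraries, and 358 in standard medium, against 184.

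A second group of 4 transcripts was higher in every GUL-1-GFP pull-down than in every wild-type pull-down of the same medium, but by less. acw-1, also named ccg-15 after its control by the circadian clock, had 222, 106 and 197 CPM in GUL-1-GFP pull-downs with Nikkomycin Z, against 52.3, 78.7 and 36.4 CPM in wild-type pull-downs. Without the drug acw-1 had 115, 130.0 and 157 CPM in GUL-1-GFP pull-downs, against 30.2, 42.2 and 24.9 CPM in wild-type pull-downs. Its log2FC was 1.65 ± 0.55 (adjusted p = 0.0487, edgeR) with Nikkomycin Z and 2.05 ± 0.56 (adjusted p = 0.0444, edgeR) in standard medium. Both calls were at the threshold, being lost in 13 of the 22 fits without a library with Nikkomycin Z (adjusted p up to 0.212) and in 14 of 22 in standard medium (up to 0.431).

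ncw-1 had 203, 123 and 161 CPM in GUL-1-GFP pull-downs with Nikkomycin Z, against 21.3, 16.2 and 18.5 CPM in wild-type pull-downs, a log2FC of 3.12 ± 0.62 (adjusted p = 0.00136, edgeR). In standard medium it had 41.0, 87.8 and 128 CPM in GUL-1-GFP pull-downs, against 17.0, 37.0 and 24.8 CPM in wild-type pull-downs, a log2FC of 1.70 ± 0.59 that did not pass (adjusted p = 0.192, edgeR). GUL-1-GFP replicate 1, the library with the least gul-1 of its group, had the lowest value, and with the 5 libraries left out the log2FC in standard medium was 2.37 (adjusted p = 0.00117, edgeR). ncw-1 overlaps NCU05138 by 877 bases in the NC12 annotation, but that gene had at most 53 counts in any library, and ncw-2 overlaps NCU01751 by 31 bases, which had at most 40 counts.

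acw-3 had the highest level of the 9 in all 10 inputs, per kilobase as well as per library. It had 178, 102 and 147 CPM in GUL-1-GFP pull-downs with Nikkomycin Z, against 45.1, 41.5 and 51.7 CPM in wild-type pull-downs, a log2FC of 1.63 ± 0.49 (adjusted p = 0.0300, edgeR). In standard medium it had 71.3, 95.2 and 95.5 CPM in GUL-1-GFP pull-downs, against 34.1, 48.5 and 30.2 CPM in wild-type pull-downs, a log2FC of 1.22 ± 0.49 (adjusted p = 0.362, edgeR). Its call with Nikkomycin Z was lost in 8 of the 22 fits without a library (adjusted p up to 0.185). acw-5 had 14.0, 9.15 and 10.2 CPM in GUL-1-GFP pull-downs with Nikkomycin Z, against 4.17, 6.05 and 2.92 CPM in wild-type pull-downs. Without the drug acw-5 had 15.6, 10.2 and 8.63 CPM in GUL-1-GFP pull-downs, against 3.75, 5.97 and 3.95 CPM in wild-type pull-downs. The groups did not overlap, yet the log2FC of 1.35 ± 0.51 with Nikkomycin Z (adjusted p = 0.0789, edgeR) and of 1.33 ± 0.51 in standard medium (adjusted p = 0.296, edgeR) did not pass. With Nikkomycin Z acw-5 passed in the fit of only the libraries compared (log2FC 1.43, adjusted p = 0.00203, edgeR) and with the 5 libraries left out (log2FC 1.36, adjusted p = 0.00430, edgeR).

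For acw-6 and ncw-3 no difference between the strains passed in the fit of all 22 libraries. With total counts as library sizes the sign turned for acw-6 in standard medium (log2FC 0.82) and for ncw-3 with Nikkomycin Z (0.32), both below 0 with TMM, while acw-6 with Nikkomycin Z was below 0 in all 8 alternatives other than leaving out 1 library (-1.77 to -0.79). acw-6 had 3.39, 2.80 and 3.09 CPM in GUL-1-GFP pull-downs with Nikkomycin Z, against 11.2, 12.1 and 7.17 CPM in wild-type pull-downs. Without the drug acw-6 had 7.78, 3.60 and 1.59 CPM in GUL-1-GFP pull-downs, against 12.2, 0.796 and 6.0 CPM in wild-type pull-downs. With Nikkomycin Z all GUL-1-GFP pull-downs were thus below all wild-type pull-downs, while in standard medium the groups overlapped. The log2FC was -1.71 ± 0.81 (adjusted p = 0.164, edgeR) with Nikkomycin Z and -0.54 ± 0.79 (adjusted p = 1, edgeR) in standard medium. Libraries high in eas were also those high in acw-6, while among the pull-downs low in eas the levels did not rise together. GUL-1-GFP pull-down 1, the one with eas at 19.5 CPM, had the most acw-6 of the 6 GUL-1-GFP pull-downs, and wild-type pull-down 2, with eas at 0.358 CPM, had the least of the 6 wild-type pull-downs. Likewise in inputs, the GUL-1-GFP input with eas at 4.12 CPM had 4.43 CPM of acw-6 while the other 3 GUL-1-GFP inputs had 0. In the fit of only the libraries compared, acw-6 was lower in GUL-1-GFP pull-downs with Nikkomycin Z (log2FC -1.65, adjusted p = 2.74e-04, edgeR). With the 5 libraries left out, pull-downs in standard medium had 3.60 and 1.59 CPM (GUL-1-GFP) against 12.2 and 6.0 CPM (wild-type), a log2FC of -1.84. The pull-downs left out were chosen by their eas level, with which acw-6 went. That value therefore cannot tell whether acw-6 was lower with the tag in standard medium. With Nikkomycin Z, where no library was left out, the log2FC in this fit was -1.71, as with all libraries. Its adjusted p was smaller, but the spread was estimated over the kept libraries of all groups. That smaller value is thus not free of the choice by eas. What part the conidiation markers have in the level of acw-6 was not tested.

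**Figure D3:**
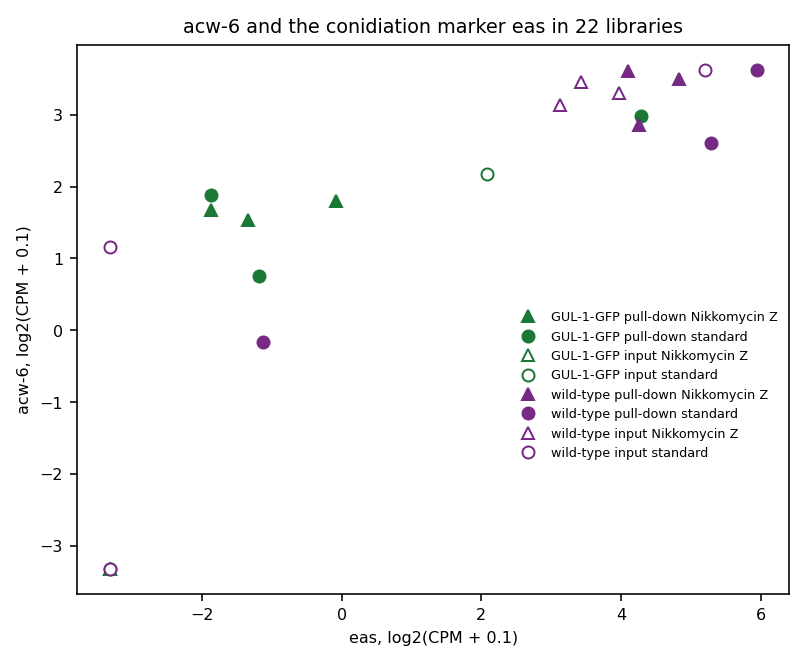
acw-6 against the conidiation marker eas, both as log2(CPM + 0.1), in the 22 libraries (green, GUL-1-GFP; purple, wild-type; filled, pull-down; open, input; triangles, Nikkomycin Z; circles, standard medium); 3 GUL-1-GFP inputs and 1 wild-type input with 0 counts of both genes lie on the same point. Libraries with eas at 8.63 CPM or more all had at least 6.0 CPM of acw-6, and the others had at most 4.43 CPM.

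ncw-3 had 16.1, 24.1 and 19.2 CPM in GUL-1-GFP pull-downs with Nikkomycin Z, against 21.2, 29.4 and 33.4 CPM in wild-type pull-downs, and 6.62, 11.3 and 10.6 CPM in GUL-1-GFP pull-downs in standard medium, against 9.86, 6.21 and 8.94 CPM in wild-type pull-downs. The strains overlapped in both media. The log2FC was -0.50 with a 95% interval of -1.45 to 0.45 with Nikkomycin Z and 0.19 with an interval of -0.76 to 1.14 in standard medium.

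Because only ratios between genes of the same library are free of library size and scaling, the 9 genes were also expressed as shares of their summed counts, not scaled to length. ncw-2 made up 63.0 to 74.4% of these counts in the 6 GUL-1-GFP pull-downs (median 64.8%), against 6.24 to 22.4% in the 6 wild-type pull-downs (median 13.7%). It made up 10.5 to 21.7% in the 4 GUL-1-GFP inputs. acw-3 led in inputs instead, with 45.4 to 70.7% in GUL-1-GFP inputs and 27.9 to 61.8% in the 5 wild-type inputs with more than 59 coding counts. For each count of ncw-3 there were 37.3 to 171 counts of ncw-2 in GUL-1-GFP pull-downs, against 0.775 to 7.03 in wild-type pull-downs and 1.05 to 8.75 in GUL-1-GFP inputs. For acw-7 these ratios were 3.69 to 10.7 in GUL-1-GFP pull-downs, against 0.0646 to 1.0 in wild-type pull-downs. For acw-2 they were 2.88 to 12.4 in GUL-1-GFP pull-downs, against 0.233 to 0.667 in wild-type pull-downs. For the other members the ratios to ncw-3, taken over both media, overlapped between the pull-downs of the strains. In GUL-1-GFP against wild-type they were 4.41 to 17.3 against 1.09 to 6.80 for acw-1 and 4.23 to 11.1 against 1.41 to 7.81 for acw-3. They were 0.380 to 2.36 against 0.0875 to 0.962 for acw-5 and 5.11 to 12.6 against 0.549 to 5.96 for ncw-1. For acw-6 they were 0.116 to 1.18 against 0.128 to 1.23. These ranges join the media, between which the levels of ncw-3 itself separated. Within each medium the ratios of acw-1, acw-3 and ncw-1 were higher in every GUL-1-GFP pull-down than in every wild-type pull-down. Those of acw-5 were so with Nikkomycin Z only. In every tagged pull-down ncw-2 thus held more counts than the other 8 together, which it did in no other library with at least 100 counts of the 9.

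**Figure D4:**
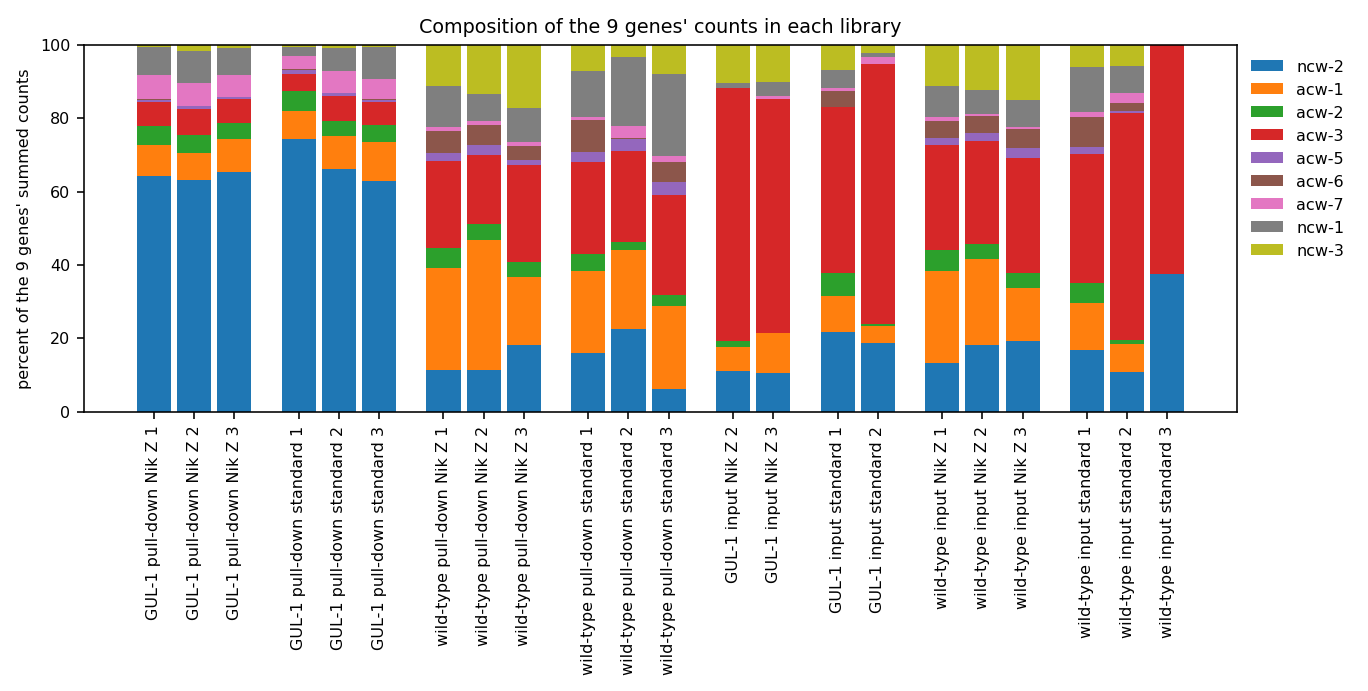
Share of each of the 9 genes in their summed counts, in percent, in each of the 22 libraries (GUL-1, the GUL-1-GFP strain; Nik Z, Nikkomycin Z; number, replicate). ncw-2 fills 63.0% or more of every GUL-1-GFP pull-down and 22.4% or less of every wild-type pull-down; the last bar rests on 8 counts.

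Enrichment over total RNA was compared next. A transcript was called retained, with the thresholds of the study, if the pull-down of the tagged strain exceeded its input at a log2FC over 2 and an adjusted p under 0.05, unless wild-type pull-downs were also called higher than their inputs. With Nikkomycin Z 7 of the 9 transcripts were retained (all but acw-3 and ncw-3), against 18.5% of all features tested. In standard medium 6 were retained (those 7 without acw-6), against 17.7%. Libraries of the same strain, medium and replicate number were also fitted as a block, here called a culture block, although no label names the cultures. In that fit 7 of the 9 were retained with Nikkomycin Z and 6 in standard medium. The count over all features was 874 with Nikkomycin Z, against 1314 without the block, and 776 in standard medium, against 1262. The GUL-1-GFP inputs held so few coding counts that the median feature was itself at a log2FC of 3.69 with Nikkomycin Z and 3.32 in standard medium, and values are best read against that. The median over the 9 genes was 6.50 with Nikkomycin Z and 4.36 in standard medium, or 3.98 and 3.97 with the transcripts at 0 in both inputs set to their lower bound.

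Relative to the median feature the members differed widely. With Nikkomycin Z acw-7 had a log2FC of 8.12 ± 1.11, acw-2 of 6.53 ± 1.06, ncw-2 of 6.50 ± 0.85 and ncw-1 of 5.40 ± 0.85 (adjusted p between 1.51e-05 and 1.11e-04, edgeR). acw-1, at 3.85 ± 0.73 (adjusted p = 5.87e-04, edgeR), stood no more than 0.16 above the median feature. acw-3 at 0.64 ± 0.55 and ncw-3 at 0.50 ± 0.56 did not pass and lay 3.05 and 3.19 below it. In standard medium the retained members other than acw-5 lay between 3.97 and 5.31, and acw-3 at 0.16 ± 0.54 and ncw-3 at 0.94 ± 0.59 did not pass. acw-5 had 0 counts in all 4 GUL-1-GFP inputs, so its levels in the pull-downs were at least 15.8-fold higher with Nikkomycin Z and at least 14.6-fold higher in standard medium, taking 3 counts in each input as the floor. acw-6, at 0 in both GUL-1-GFP inputs with Nikkomycin Z, was at least 4.37-fold higher, although below the wild-type pull-downs. A single fragment may carry more than 1 of the deposited counts, so these bounds may be too high.

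The wild-type pull-downs, which show what the beads hold without the tag, gave no call among the 9. In wild-type pull-down over input 0 of 9 were called in either direction in either medium, against 0% of all features with Nikkomycin Z and 0.45% in standard medium. At an unadjusted p under 0.05 (edgeR), 0 of the 9 passed with Nikkomycin Z, against 247 of the 7114 features, and 2 in standard medium, against 954. DESeq2 called 0 of the 9 in both. The median log2FC of the 9 was 0.06 with Nikkomycin Z and 0.43 in standard medium, beside 0.08 and 0.61 over all features. When the standard medium was fitted without the other libraries, with 3 pull-downs and 2 inputs, 0 of the 9 were retained (adjusted p = 0.0854 for each of the 6, edgeR), as were 0 of all features.

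**Figure D5:**
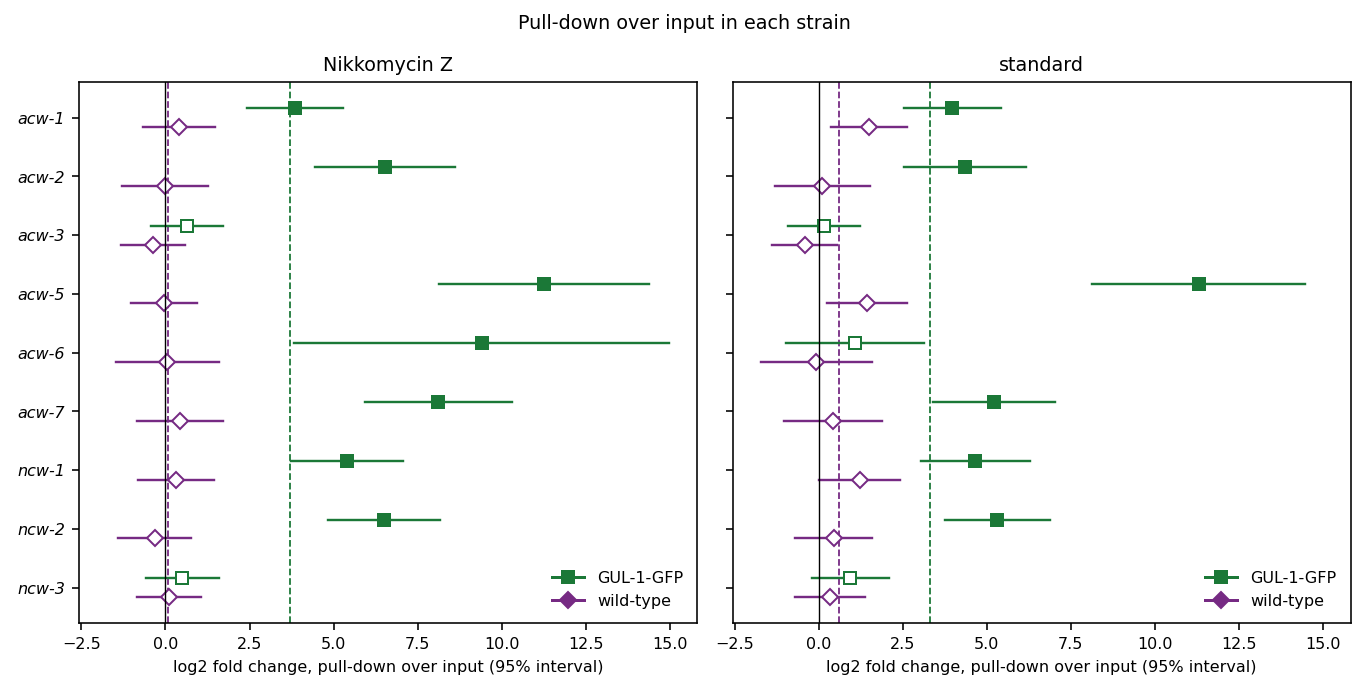
Log2 fold change of pull-down over input with 95% intervals for the 9 transcripts in GUL-1-GFP (squares) and wild-type (diamonds), with Nikkomycin Z on the left and in standard medium on the right (filled, retained; dashed lines, median of all features in each strain). In GUL-1-GFP acw-3 and ncw-3 lie below the line in both media, and in wild-type the 9 lie between -0.42 and 1.49.

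The difference between the strains in pull-down over input was then tested itself, as an interaction of strain and fraction. With Nikkomycin Z 6 of the 9 passed upward (acw-1, acw-2, acw-5, acw-7, ncw-1 and ncw-2), against 9.17% of all features. acw-6, at 9.35 ± 3.19, was just outside (adjusted p = 0.0632, edgeR) and passed in 7 of 8 alternatives other than leaving out 1 library, a value that rests on 0 counts in both GUL-1-GFP inputs. In standard medium 4 passed (acw-2, acw-5, acw-7 and ncw-2), against 2.16%, with ncw-1 just outside (log2FC 3.43 ± 0.96, adjusted p = 0.0518, edgeR). For ncw-2 the difference was 6.83 ± 0.96 (adjusted p = 6.36e-05, edgeR) with Nikkomycin Z and 4.86 ± 0.92 (adjusted p = 0.00487, edgeR) in standard medium, beside a median of 2.91 and 0.87 over all features. In the fit of only the standard-medium libraries, 0 of the 9 and 0 of all features passed (adjusted p between 0.238 and 0.258 for the 4, edgeR). With all libraries the count for this medium fell to 2 without GUL-1-GFP pull-down 3, wild-type pull-down 3 or wild-type input 1. The last of these leaves wild-type input 2 and the 59-count library as wild-type inputs. No count of this interaction in standard medium is given for fits that left 1 input of a strain in that medium. These include the fit without GUL-1-GFP input 2 and that with the 5 libraries left out.

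No difference between the media in what the tag brought down was detectable for the 9. The interaction of strain and treatment in pull-downs passed for 0 of the 9, against 0.0281% of all features in either direction. At an unadjusted p under 0.05 (edgeR) it was 0 of the 9, against 711 of the 7114 features, and DESeq2 called 0 of the 9. The largest values were those of ncw-1 (1.42 ± 0.82, adjusted p = 0.582, edgeR) and acw-7 (1.27 ± 0.90, adjusted p = 0.674, edgeR). Between treatments within GUL-1-GFP pull-downs 0 of the 9 passed, as did 0% of all features, and DESeq2 called 0. At an unadjusted p under 0.05 (edgeR) 1 of the 9 passed, against 301 of the 7114 features.

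Across treatments ncw-3 was the member whose levels separated in every strain and fraction. In wild-type pull-downs it had 21.2, 29.4 and 33.4 CPM with Nikkomycin Z, against 9.86, 6.21 and 8.94 CPM in standard medium, a log2FC of 1.75 ± 0.50 (adjusted p = 0.176, edgeR). In wild-type inputs it had 23.2, 22.7 and 32.1 CPM with Nikkomycin Z, against 8.71, 6.02 and 0 CPM in standard medium, a log2FC of 1.97 ± 0.54 (adjusted p = 0.0637, edgeR). In GUL-1-GFP pull-downs the log2FC was 1.06 ± 0.49 (adjusted p = 1, edgeR), and GUL-1-GFP inputs had 13.8 and 14.2 CPM with Nikkomycin Z, against 6.65 and 3.34 CPM in standard medium. No library with Nikkomycin Z was as low as any library in standard medium within these groups, yet none of the 3 differences tested passed in edgeR over all 22 libraries, and that between GUL-1-GFP inputs was not tested. By DESeq2 ncw-3 passed in wild-type pull-downs (log2FC 1.68, adjusted p = 0.00836) and in wild-type inputs (log2FC 1.98, adjusted p = 0.00251). By edgeR it passed in wild-type inputs without either GUL-1-GFP input (adjusted p = 0.0338 and 0.0340) or wild-type input 1 (adjusted p = 0.0233) of the standard medium, and in wild-type pull-downs with the 5 libraries left out (log2FC 1.58, adjusted p = 0.0261). With edgeR over all libraries 0 of the 9 passed in wild-type pull-downs, against 0.0422% of all features in either direction, and 0 in wild-type inputs, against 0.998%. At an unadjusted p under 0.05 (edgeR) 1 of the 9 passed in wild-type pull-downs, against 822 of the 7114 features. In wild-type inputs 3 passed, against 1223. Pull-downs and inputs that share a replicate number may come from the same culture, so the fractions do not count as separate evidence.

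Other wall genes were read beside the 9. Of the 10 other acw and ncw genes, 2 were higher and 1 was lower in the tagged than in the non-tagged pull-downs with Nikkomycin Z and 1 was higher in standard medium, with a median log2FC of -0.73 and -0.20. acw-9 passed in both media, at 4.49 ± 0.70 (adjusted p = 5.84e-05, edgeR) with Nikkomycin Z and 3.26 ± 0.66 (adjusted p = 0.00228, edgeR) in standard medium. It had 355, 155 and 271 CPM in GUL-1-GFP pull-downs with Nikkomycin Z, against 13.9, 9.83 and 11 CPM in wild-type pull-downs. Of 13 tested genes of wall polysaccharide synthesis and cross-linking, such as chitin synthases and glucanosyltransferases, 6 were higher with Nikkomycin Z and 2 in standard medium (median log2FC 1.71 and 0.83). gel-3, of a family of glucan-elongating transferases, passed with Nikkomycin Z (log2FC 2.65 ± 0.60) and in standard medium (2.46 ± 0.60), as did NCU06781 of the same family (4.75 ± 0.77 with Nikkomycin Z and 3.11 ± 0.71 in standard medium). Of 6 genes with GPI in their product name 1 was higher in each medium, NCU09175 (3.82 ± 0.57 with Nikkomycin Z and 3.52 ± 0.57 in standard medium).

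NCU09175 was also the feature whose profile was most like the mean profile of the 9 genes over the 22 libraries (Pearson r = 0.975 on standardised log2 CPM), followed by NCU07305 (r = 0.967) and rho-3 (r = 0.966), a gene for a small GTPase. These libraries share depth and fraction, which enter every such profile. Within the set, ncw-1 (r = 0.954), acw-1 (r = 0.938) and acw-2 (r = 0.909) followed the mean of the other 8 most closely, and acw-3 (r = 0.463) and acw-6 (r = 0.503) least.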

How the data were processed

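RNA immunoprecipitation followed by sequencing (TruSeq stranded libraries) was analysed in 22 libraries of 8 groups. The deposited values are estimated counts per gene that the authors made from aligned reads and did not normalise. The submitters' processing notes name CASAVA 1.8.2, HISAT2 2.1.0 and StringTie 1.3.3b, whereas the study's methods name another aligner and counter, and the genome build is not given in the sources used here. All deposited counts were whole, so rounding changed nothing, but 1 and 2 were rarer than 3 (862, 1921 and 4353 values), and a fragment may carry several counts. Limits set from 3 counts cover counting error only. Whether counting used strand is not stated.

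Names and gene spans came from the RefSeq gene table of assembly NC12 (10590 of 10592 features matched). Features with low counts were removed (filterByExpr, minimum count 10), libraries were scaled by TMM, and all 8 groups were fitted in 1 quasi-likelihood model (edgeR 4.0.16, R 4.3.3) with Benjamini-Hochberg adjustment over 7114 features and calls at an adjusted p under 0.05. All tests were two-sided. The SE of a log2FC was its size over the root of F, and 95% intervals are 1.96 SE to either side. DESeq2 1.42.0, total counts as library sizes, no filter, only the libraries of a comparison, a replicate or culture block and leaving out each library were alternatives, and 3 more were chosen after seeing the data (protein-coding genes only, replicate 1 as the only wild-type pull-down in standard medium, and 5 libraries left out). The fits were tested on simulated data with 200 of the 7114 features changed in GUL-1-GFP pull-downs of 1 medium. The 200 were drawn from features above the median abundance, so recovery of scarcer features may be lower. At a log2FC of 2 the strain comparison of pull-downs recovered 30% in standard medium and 30.5% with Nikkomycin Z. Strain by fraction recovered 0.5% and 0%. At a log2FC of 4 the recovery was 97% and 98% for the strain comparison, and 61% and 69.5% for strain by fraction. Differences of about 2 or less that were not called are therefore not shown to be absent. For strain by fraction this holds for differences of about 4 as well. The interaction of strain and treatment was not simulated. Named were the 9 genes, gul-1, the 3 features most like the mean profile, and at most 4 genes per wall list called in pull-downs of both media. con-8, eas and the libraries that stood apart were singled out after their values were seen. The 9 genes and the lists were chosen with earlier results of these data known.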

Additional observations from a re-analysis of the deposited data

Results flagged for a closer look

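The difference between the strains in pull-down over input passed its own test (the interaction of strain and fraction, edgeR) for 6 of the 9 genes with Nikkomycin Z and for 4 in standard medium. With Nikkomycin Z the log2 differences were 11.30 for acw-5, 7.68 for acw-7, 6.83 for ncw-2, 6.55 for acw-2, 5.10 for ncw-1 and 3.45 for acw-1. In standard medium they were 9.87 for acw-5, 4.86 for ncw-2, 4.79 for acw-7 and 4.25 for acw-2. The values of acw-5 rest on 0 counts in all 4 GUL-1-GFP inputs and depend on the prior count of the fit, so only their sign is meaningful. Over all features the median difference was 2.91 with Nikkomycin Z and 0.87 in standard medium.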

How the results depend on the processing

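In standard medium, 2 of the 9 genes were higher in tagged pull-downs when wild-type pull-down 1 stood alone. Also in standard medium, retained genes and strain-by-fraction calls were both 0 in fits of only the libraries compared (7 and 7 with Nikkomycin Z). DESeq2 called 1 gene between treatments in wild-type pull-downs and 2 in wild-type inputs, and leaving out the 5 libraries gave 1 in wild-type pull-downs. Without GUL-1-GFP pull-down 3, wild-type pull-down 3 or wild-type input 1, the strain-by-fraction calls in standard medium fell to 2. Over fits without 1 library, calls ranged from 0 to 1 for wild-type pull-down over input in standard medium (1 without wild-type input 1). Between treatments in wild-type inputs they ranged from 0 to 4 (4 without wild-type standard input 1). Signs turned only for genes that were not called. In standard medium the log2FC of the strain comparison for acw-6 was 0.82 with total counts as library sizes and ranged from -1.21 to 0.33 without 1 library, and that for ncw-3 was -0.14 by DESeq2 and -0.056 with wild-type pull-down 1 alone. With Nikkomycin Z ncw-3 had 0.32 with total counts. For tagged pull-downs over their inputs in standard medium, acw-3 had -0.22 with the 5 libraries left out and ranged from -0.35 to 0.96 without 1 library, and acw-6 from -0.030 to 9.95. For strain by fraction acw-6 ranged from -0.59 to 10.04. The causes were not tested. The other gene-level alternatives kept direction and call in 1989 cases, lost the call in 102 and gained it in 48.

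Counts over all features moved more. In standard medium 184 were higher in tagged pull-downs, against 68 with wild-type pull-down 1 alone and 358 with the 5 libraries left out. With Nikkomycin Z 506 were higher, against 1481 in fits of only the libraries compared and 1029 with the 5 left out. In standard medium 1262 were retained, against 4955 with total counts, 776 with a culture block and 0 with only the libraries compared, and with Nikkomycin Z 1314, against 2331 by DESeq2, 3765 with total counts and 874 with a culture block. For strain by fraction the 154 of the standard medium became 346 by DESeq2 and 659 with total counts. The 652 with Nikkomycin Z became 1435, 1360 and 1298 by DESeq2, with total counts and with the 5 left out. Total counts moved the median of all features in the strain comparison to 0.72 with Nikkomycin Z and 0.89 in standard medium.

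Pull-downs and inputs of the same replicate number deviated together in standard medium (correlation 0.20 to 0.35 in 5 of 5 pairs) and not over 0.1 with Nikkomycin Z (0.014 to 0.094 in 5 pairs). The lowest of the standard medium (0.202) rests on the 59-count input. Of 20 pairs of unlike number 1 was over 0.1, GUL-1-GFP pull-down 3 with input 2 of the standard medium (0.206). The 2 GUL-1-GFP inputs of a medium deviate in opposite directions by construction. Of the 6 same-numbered pairs of GUL-1-GFP and wild-type pull-downs, 2 were over 0.1. These were replicates 1 (0.525) and 2 (0.417) of the standard medium. What these pairs share beyond a number was not tested. With the replicate block, 6 genes were higher with Nikkomycin Z and 4 in standard medium, 7 and 6 were retained, and 7 and 4 passed for strain by fraction. Low coding counts in inputs limit every comparison with them.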
